A study of Mus musculus with 21 samples.

Results

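A set of 43 genes that most white blood cells share for signaling and for movement was followed through 21 RNA-seq libraries of mouse cells. The genes were matched by symbol, and all 43 were found among the 19321 genes with values in the coculture table and among the 27968 genes of the sorted-cell table. The set was selected on the FPKM values of these same libraries, across all of the groups described here. Its levels and differences between groups are therefore given as a description, without p-values. Where members are counted or named as higher or lower, this says only that they lay past the thresholds applied to all genes, and it is not independent evidence. FPKM is a level corrected for the length of the transcript and the size of the library, and values after ± are the SD over 3 libraries.

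The study asked how hematopoietic cells made from mouse pluripotent stem cells compare with stem and progenitor cells of the fetal liver and the bone marrow. Colonies induced in a 3D peptide gel were moved onto OP9 stromal cells (3D+OP9) or onto a gelatin coating (3D+0.1%gelatin), and total cells were taken on day 5. From 3D+OP9, lineage-negative, Sca-1-positive, c-Kit-positive (LSK) cells were sorted on day 5 into those with CD201 on their surface (D5-LSKCD201+) and those without (D5-LSKCD201-). Undifferentiated embryonic stem cells (mESC) were sorted on SSEA-1, and LSK cells with CD201 were sorted from the fetal liver on embryonic day 12.5 (FL-LSKCD201+) and from the bone marrow of mice aged 6 to 8 weeks (BM-LSKCD201+). Each of the 7 groups had 3 libraries. All the cultured groups were given as 129/ola and both tissue groups as C57BL/6, although the study names both strains as sources of its embryonic stem cells. Strain, culture and tissue of origin therefore cannot be told apart in any comparison between them. The labels give no transgene for any group and do not say how many cultures, embryos or mice stood behind the 3 libraries of each. The study calls the sorted-cell libraries of a group biological replicates. For the day 5 sorted cells, a figure caption gives samples from at least 3 independent experiments. The p-values measure the spread between these libraries, whatever its source. The 3D+OP9 culture also held OP9 cells, and mESC were grown on feeder fibroblasts.

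Leukocytes carry a common machinery that links receptors on their surface to the actin cytoskeleton. CD45, the phosphatase encoded by Ptprc, sets the activity of Src family kinases such as Lyn. Those kinases act through adaptors such as SLP-76 (Lcp2) and through the phospholipase Plcg2 and the exchange factors Vav1 and Dock2. The exchange factors load the GTPase Rac2, which drives actin branching through the WAVE complex, with Hem1 (Nckap1l) as a subunit. Many of these proteins are the blood-cell versions of families whose other members are used by most cells of the body, such as Rac1 beside Rac2. In the embryo the first blood cells with stem cell activity arise from endothelial cells, and CD45 appears on them as they leave the vessel wall.

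The windows before the annotated starts of several members are shown for the letters they share. In RefSeq (GRCm38.p6), 37 of the 43 genes matched, with 44 windows of 250 bases, some of which overlap each other. The letters GGAAGT, the core bound by many ETS factors, were searched on both strands and were in 22 of the 44 windows and in 19.7% of all 32817 RefSeq windows of that length. The longer AGGAAGT, which contains it, was in 38.6% against 7.69%, and GAGGAAGT, the form preferred by the myeloid and lymphoid factor PU.1, in 11.4% against 2.44%. CCGGAAGT, an ETS form frequent at housekeeping genes that also contains GGAAGT, was in 0 of the 44 windows and in 2.88% of all. Of both RUNX forms searched, TGTGGT was in 22.7% against 14.0%, and TGCGGT in 0 of the 44 windows against 5.09% of all. Printed 5′ to 3′ on the strand of the gene, capitals mark GGAAGT or TGTGGT and their reverse complements ACTTCC and ACCACA. The first 5 below are the members with GAGGAAGT, Ptprc is the gene for CD45 itself, and Was has both kinds of letters. Il2rg and Fermt3 are among the members best expressed in D5-LSKCD201+. A match describes the letters only.

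The windows lie at chr17:57278850-57279099 (plus strand), chr1:87620062-87620311 (plus strand), chr1:193201547-193201796 (minus strand), chr7:45238840-45239089 (minus strand), chr12:32208471-32208720 (minus strand), chr1:138175306-138175555 (minus strand), chrX:8090492-8090741 (minus strand), chrX:101268256-101268505 (minus strand) and chr19:7019470-7019719 (minus strand), in that order.
Vav1: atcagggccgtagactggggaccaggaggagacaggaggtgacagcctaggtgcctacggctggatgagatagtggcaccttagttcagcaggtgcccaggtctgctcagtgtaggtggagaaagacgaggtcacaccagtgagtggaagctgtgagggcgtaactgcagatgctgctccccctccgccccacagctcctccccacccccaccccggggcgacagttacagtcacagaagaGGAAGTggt
Inpp5d: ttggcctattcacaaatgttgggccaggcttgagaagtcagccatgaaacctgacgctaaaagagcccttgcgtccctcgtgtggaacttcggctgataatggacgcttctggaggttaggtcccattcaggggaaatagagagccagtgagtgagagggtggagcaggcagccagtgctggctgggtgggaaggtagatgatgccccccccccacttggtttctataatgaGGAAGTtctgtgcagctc
Traf3ip3: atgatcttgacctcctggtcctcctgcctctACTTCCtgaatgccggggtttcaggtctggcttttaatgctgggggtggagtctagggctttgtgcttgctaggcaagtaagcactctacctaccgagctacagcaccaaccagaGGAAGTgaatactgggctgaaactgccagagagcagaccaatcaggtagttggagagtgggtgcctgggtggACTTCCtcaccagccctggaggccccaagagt
Cd37: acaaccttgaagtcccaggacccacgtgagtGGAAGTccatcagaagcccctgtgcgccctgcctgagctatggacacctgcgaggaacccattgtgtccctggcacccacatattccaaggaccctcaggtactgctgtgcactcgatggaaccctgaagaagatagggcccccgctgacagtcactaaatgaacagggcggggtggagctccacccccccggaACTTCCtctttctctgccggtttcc
Pik3cg: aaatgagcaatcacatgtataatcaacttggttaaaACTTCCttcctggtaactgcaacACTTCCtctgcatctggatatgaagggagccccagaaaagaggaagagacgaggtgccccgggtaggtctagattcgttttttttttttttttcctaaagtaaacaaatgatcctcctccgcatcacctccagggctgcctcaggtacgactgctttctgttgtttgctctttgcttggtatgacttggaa
Ptprc: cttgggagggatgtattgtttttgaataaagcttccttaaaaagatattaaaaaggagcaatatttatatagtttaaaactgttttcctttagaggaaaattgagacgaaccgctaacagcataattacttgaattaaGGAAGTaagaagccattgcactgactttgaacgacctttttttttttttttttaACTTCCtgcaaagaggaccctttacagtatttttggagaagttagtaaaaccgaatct
Was: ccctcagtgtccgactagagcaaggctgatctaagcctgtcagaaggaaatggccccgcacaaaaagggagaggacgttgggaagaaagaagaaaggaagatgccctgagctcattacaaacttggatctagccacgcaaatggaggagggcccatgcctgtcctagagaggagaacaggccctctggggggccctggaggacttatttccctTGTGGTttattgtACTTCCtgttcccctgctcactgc
Il2rg: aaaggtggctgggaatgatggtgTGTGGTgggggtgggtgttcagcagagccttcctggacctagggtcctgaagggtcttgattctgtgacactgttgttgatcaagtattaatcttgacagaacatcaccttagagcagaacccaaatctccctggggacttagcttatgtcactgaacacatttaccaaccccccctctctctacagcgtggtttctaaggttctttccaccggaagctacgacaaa
Fermt3: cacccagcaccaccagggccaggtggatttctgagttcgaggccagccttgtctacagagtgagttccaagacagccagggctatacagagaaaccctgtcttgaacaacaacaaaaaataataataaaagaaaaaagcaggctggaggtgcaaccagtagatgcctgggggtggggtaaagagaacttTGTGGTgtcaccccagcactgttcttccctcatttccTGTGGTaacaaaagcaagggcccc
The 250 bases of Vav1 end in GAGGAAGT followed by GGT, directly before the start. The median number of CpG dinucleotides was 4 in the windows of the members and 6 in all windows. Windows with 0 or 1 CpG were nonetheless fewer among the members, at 6.82% against 18.8%. The GC box GGGCGG was in 18.2% against 32.7%. TATAAA was in 13.6% against 12.4%, and the GATA letters AGATAA in 13.6% against 9.99%.

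Before the levels are read, some libraries need to be named. In 4 groups 1 replicate stood apart from the other two across all genes whose mean reached 5 FPKM. In FL-LSKCD201+ the SD of log2 differences was 0.474 and 0.453 between replicate 1 and the others and 0.108 between replicates 2 and 3. Replicate 1 of BM-LSKCD201+, replicate 2 of D5-LSKCD201- and replicate 3 of 3D+OP9 stood apart in the same way. Counts were not used here, so whether the closer pairs are repeat runs of one sample cannot be checked, and results were also computed with each closest pair averaged into 1 sample. The genes of the 3 sorting markers of LSKCD201+ cells, Kit, Ly6a and Procr, the last of which encodes CD201, summed to 162 to 171 FPKM in D5-LSKCD201+, 58.5 to 69.1 in D5-LSKCD201-, 146 to 181 in FL-LSKCD201+, 425 to 460 in BM-LSKCD201+ and 9.92 to 11.4 in mESC. Procr alone stood at 3.48 ± 0.411 FPKM in D5-LSKCD201- versus 59.7 ± 2.03 in D5-LSKCD201+. The summed level of 5 naive pluripotency markers was 1162 to 1196 FPKM in mESC, still 618 to 673 in D5-LSKCD201-, but 5.67 to 5.95 in D5-LSKCD201+. The 6 endothelial markers summed to 909 to 950 FPKM in D5-LSKCD201+ (all 6 at 1 FPKM or more), 46.4 to 48.3 in D5-LSKCD201- and 78.5 to 101 in FL-LSKCD201+. In FL-LSKCD201+ the 5 neutrophil markers summed to 1525 to 1618 FPKM, the 6 monocyte and macrophage markers to 607 to 664 and the 5 erythroid markers to 352 to 422, although lineage-positive cells were gated out. The 5 megakaryocyte and platelet markers summed to 50.4 to 52.7 FPKM in D5-LSKCD201+ versus 5.74 to 6.83 in D5-LSKCD201-, and the 6 stem cell markers, which include Procr, to 108 to 115 versus 7.96 to 11.98. In the same order, the monocyte and macrophage markers summed to 40.3 to 42.4 FPKM versus 14.9 to 17.0, the 5 B lymphoid markers to 17.1 to 17.8 versus 3.68 to 4.69, the 7 stromal markers to 47.6 to 50.8 versus 20.8 to 39.2, and the erythroid markers to 16.4 to 21.2 versus 9.59 to 12.7. Lower in D5-LSKCD201+ were the neutrophil markers, at 5.62 to 6.37 versus 7.61 to 8.91 FPKM, and the 5 T lymphoid markers, at 3.74 to 4.89 versus 14.5 to 16.4. The part of these other cell types in the members' levels was not tested, and in bulk RNA fewer cells that express a gene cannot be told apart from less RNA per cell.

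Taken as a set, the genes were low in mESC, mixed on day 5 and high in both tissues. The median level over the 43 members was 0.406 FPKM in mESC, 1.35 in D5-LSKCD201-, 1.74 in D5-LSKCD201+, 43.5 in FL-LSKCD201+ and 62.6 in BM-LSKCD201+. At 10 FPKM or more stood 4 members in mESC, 5 in D5-LSKCD201-, 17 in D5-LSKCD201+ and 38 in each tissue group. All 43 were above 1 FPKM in FL-LSKCD201+, where the lowest was Fgr at 1.66 FPKM, and 41 were in BM-LSKCD201+.

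The near-equal medians of both day 5 groups hid a division within D5-LSKCD201+. As a share of the mean in FL-LSKCD201+, 19 members stood at 10% or more in D5-LSKCD201+, 4 of them above 50%, while 13 stood under 2%. In D5-LSKCD201- 8 members reached 10%, and in mESC 4 did. Among all 6427 genes with at least 10 FPKM in FL-LSKCD201+, the median share in D5-LSKCD201+ was 81.7% and 5.79% of the genes stood under 10%. Of the 38 members at that level, 21 (55.3%) stood under 10%. The members were chosen on these values, so nothing is read from that difference.

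**Figure D1:**
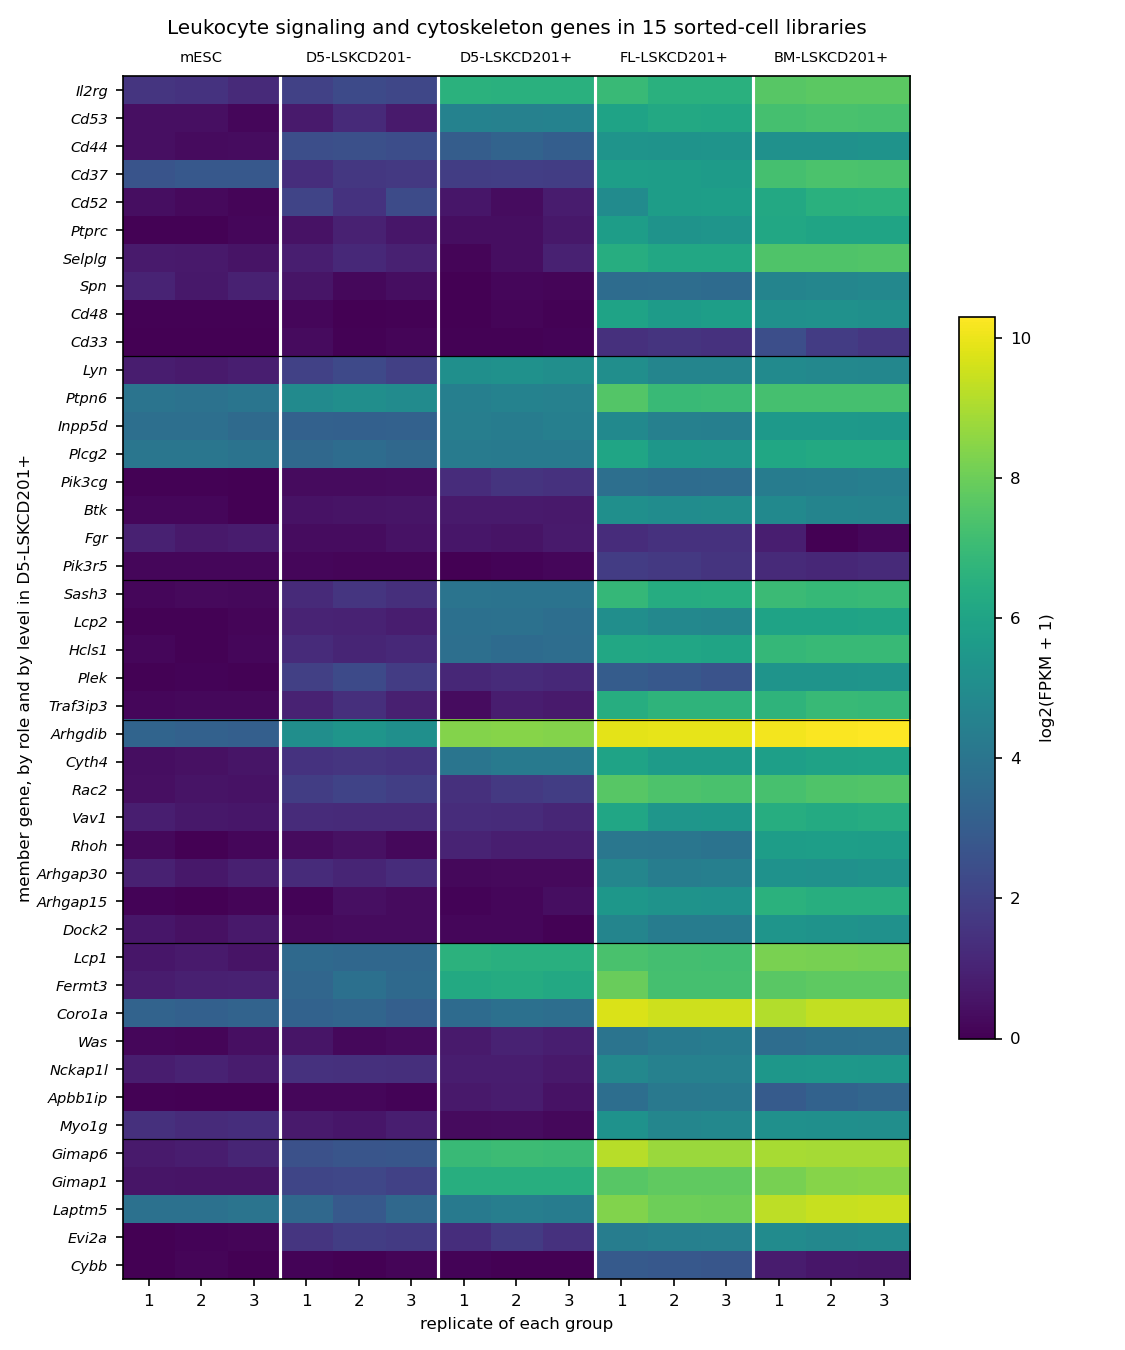
Level of each of the 43 members (rows, by role and then by level in D5-LSKCD201+) in the 15 sorted-cell libraries (columns, 3 replicates per group), as log2(FPKM + 1) by colour. Within D5-LSKCD201+ a subset such as Il2rg, Arhgdib, Lcp1 and Gimap6 is bright while Ptprc, Cd48, Dock2 and Arhgap15 are as dark as in mESC, and nearly all rows are bright in both tissue groups.

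Of the 10 surface proteins, Il2rg was the highest over the 15 libraries and Cd33 the lowest. Ptprc (ENSMUSG00000026395, chr1:138062861-138175708, minus strand), the gene for the pan-leukocyte phosphatase CD45, stood at 0.0360, 0.0453 and 0.123 FPKM in the 3 libraries of mESC, 0.419, 0.935 and 0.545 for D5-LSKCD201-, then 0.305, 0.321 and 0.602 for D5-LSKCD201+. It stood at 52.1, 38.4 and 39.9 FPKM in FL-LSKCD201+ and 71.6, 64.3 and 64.4 in BM-LSKCD201+. Both day 5 groups overlapped and all their libraries were under 1 FPKM, so the mean in D5-LSKCD201+ was 0.941% of that in FL-LSKCD201+. Il2rg (ENSMUSG00000031304, chrX:101264378-101268255, minus strand), the common gamma chain of several interleukin receptors, had the opposite day 5 pattern. It stood at 2.02, 1.82 and 1.33 FPKM in mESC, 3.01, 3.94 and 3.58 for D5-LSKCD201-, 93.9, 92.9 and 92.4 for D5-LSKCD201+, 126, 92.7 and 91.9 in FL-LSKCD201+ and 198, 208 and 208 in BM-LSKCD201+. The values of D5-LSKCD201+ lay within the range of the FL-LSKCD201+ libraries. Cd53, a tetraspanin of leukocytes, was at 0.893 ± 0.395 FPKM in D5-LSKCD201- versus 22.4 ± 0.548 in D5-LSKCD201+, 32.7% of its level in FL-LSKCD201+. Cd44, the hyaluronan receptor, was at 4.59 ± 0.166 and 7.79 ± 0.851 FPKM in the same groups and at 39.0 ± 0.901 in FL-LSKCD201+.

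The other surface genes stayed low in D5-LSKCD201+. Cd48 (ENSMUSG00000015355, chr1:171682009-171705258, plus strand), a SLAM family ligand that marks multipotent progenitors, was at 0.132, 0 and 0.0427 FPKM for D5-LSKCD201- versus 0, 0.112 and 0.0366 for D5-LSKCD201+, against 62.8, 49.7 and 53.2 in FL-LSKCD201+. It was the member with the lowest share of the fetal liver level in D5-LSKCD201+. Selplg, which encodes the selectin ligand PSGL-1, and Spn, which encodes the mucin CD43, stood at 0.436 ± 0.414 and 0.0867 ± 0.0642 FPKM in D5-LSKCD201+ and at 76.1 ± 8.17 and 11.4 ± 0.296 in FL-LSKCD201+. Cd52 (ENSMUSG00000000682, chr4:134082448-134095082, minus strand), a short GPI-anchored protein, was higher in the CD201-negative cells, with 3.35, 1.85 and 4.05 FPKM for D5-LSKCD201- versus 0.544, 0.269 and 0.721 for D5-LSKCD201+. Its day 5 groups did not overlap. Cd37, a second tetraspanin, was at 5.40, 6.12 and 6.07 FPKM in mESC, 1.56, 2.22 and 2.31 for D5-LSKCD201-, then 2.66, 2.79 and 2.64 for D5-LSKCD201+, so that both day 5 groups lay below mESC. Cd37 shares exonic bases with Tead2 on the opposite strand, which stood at 34.3 FPKM in mESC and 2.58 in FL-LSKCD201+, and the kit's handling of strand is not given, so reads of the pair cannot be told apart. Cd33 (ENSMUSG00000004609, chr7:43524216-43544428, minus strand), an inhibitory sialic acid receptor, was listed at 0 in all 3 mESC libraries and stood at 0.242, 0.0531 and 0.107 FPKM for D5-LSKCD201-, 0.0336, 0.0445 and 0.0584 for D5-LSKCD201+, 1.71, 1.90 and 1.77 in FL-LSKCD201+ and 4.51, 2.53 and 2.08 in BM-LSKCD201+.

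Among the 8 kinases, phosphatases and lipid enzymes, mESC already had several. Ptpn6 (ENSMUSG00000004266, chr6:124720707-124738714, minus strand), which encodes the phosphatase SHP-1, was the highest of the role and stood at 14.7, 13.9 and 14.99 FPKM in mESC, 29.3, 33.1 and 30.5 for D5-LSKCD201-, 20.6, 22.5 and 22.0 for D5-LSKCD201+, 186, 127 and 129.9 in FL-LSKCD201+ and 152, 152 and 155 in BM-LSKCD201+. D5-LSKCD201+ lay below D5-LSKCD201- without overlap, and replicate 1 of FL-LSKCD201+ lay above the other two. Inpp5d, which encodes the lipid phosphatase SHIP1, was at 11.9 ± 0.968 FPKM in mESC and 20.02 ± 0.761 in D5-LSKCD201+. Plcg2, a phospholipase C, was at 15.2 ± 0.727 and 18.0 ± 0.408 FPKM. These values of Inpp5d and Plcg2 in mESC were 50.7% and 30.3% of their levels in FL-LSKCD201+, and the median member stood at 0.730% of it in mESC.

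Lyn, a Src family kinase (ENSMUSG00000042228, chr4:3678115-3813122, plus strand), was the only member whose mean was higher in D5-LSKCD201+ than in FL-LSKCD201+. It stood at 0.766, 0.677 and 0.810 FPKM in mESC, 2.98, 3.89 and 2.91 for D5-LSKCD201-, 34.4, 36.4 and 33.2 for D5-LSKCD201+, 33.2, 25.0 and 24.9 in FL-LSKCD201+ and 29.7, 26.9 and 26.1 in BM-LSKCD201+. The lowest D5-LSKCD201+ library and the highest FL-LSKCD201+ library were almost level, and the other FL-LSKCD201+ libraries were lower. Fgr (ENSMUSG00000028874, chr4:132974095-133001910, plus strand), a second Src family kinase, was the lowest of the role, at 0.930, 0.622 and 0.734 FPKM in mESC, 0.284, 0.268 and 0.406 for D5-LSKCD201-, 0.555, 0.451 and 0.669 for D5-LSKCD201+, 1.47, 1.77 and 1.74 in FL-LSKCD201+ and 0.8003, 0.0226 and 0.134 in BM-LSKCD201+. In BM-LSKCD201+ 2 of the 3 libraries were near 0. Pik3cg, the catalytic subunit of the PI3-kinase used by G protein-coupled receptors, was at 0.245 ± 0.0308 FPKM in D5-LSKCD201-, 1.74 ± 0.226 in D5-LSKCD201+ and 12.03 ± 0.630 in FL-LSKCD201+. Its regulatory subunit Pik3r5 was at 0.0721 ± 0.04999 FPKM in D5-LSKCD201+ versus 2.27 ± 0.293 in FL-LSKCD201+. Btk, the Tec family kinase of B cells and myeloid cells, stayed at 0.666 ± 0.0208 FPKM in D5-LSKCD201+, against 32.3 ± 1.55 in FL-LSKCD201+.

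Of the 5 adaptors, 3 were high in D5-LSKCD201+. Sash3 (ENSMUSG00000031101, chrX:48146436-48161565, plus strand), an adaptor of lymphocytes, was the highest of the role and stood at 0.129, 0.190 and 0.155 FPKM in mESC, 1.36, 1.97 and 1.58 for D5-LSKCD201-, 14.6, 14.0 and 14.3 for D5-LSKCD201+, 115, 82.4 and 83.8 in FL-LSKCD201+ and 130.1, 119 and 121 in BM-LSKCD201+. No library of D5-LSKCD201- or mESC came near those of D5-LSKCD201+. Lcp2, which encodes SLP-76, was at 0.922 ± 0.143 and 12.8 ± 0.496 FPKM in the day 5 groups, and Hcls1, which encodes the cortactin-like protein HS1, at 1.25 ± 0.182 and 11.8 ± 0.721. Traf3ip3, a lymphocyte adaptor of the TRAF pathway, went with the low members, at 0.974, 1.64 and 0.898 FPKM for D5-LSKCD201- versus 0.264, 0.791 and 0.665 for D5-LSKCD201+, against 83.7, 103 and 104 in FL-LSKCD201+. Plek (ENSMUSG00000020120, chr11:16971206-17052381, minus strand), the platelet and leukocyte protein kinase C substrate pleckstrin, was the lowest adaptor over the 15 libraries. It stood at 0.0542, 0.0628 and 0.0326 FPKM in mESC, 2.89, 3.98 and 2.59 for D5-LSKCD201-, 1.19, 1.41 and 1.25 for D5-LSKCD201+, 6.9995, 6.11 and 5.20 in FL-LSKCD201+ and 39.6, 39.3 and 40.1 in BM-LSKCD201+. D5-LSKCD201+ was thus below D5-LSKCD201- without overlap, and BM-LSKCD201+ above every other group. Plek shares exonic bases with Cnrip1 on the opposite strand, which stood at 23.8 FPKM in D5-LSKCD201+, against 2.56 in D5-LSKCD201-.

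The 8 genes of the small GTPase module held the highest member of the whole set. Arhgdib (ENSMUSG00000030220, chr6:136923655-136941899, minus strand), the blood-cell inhibitor that keeps small GTPases in the cytosol, stood at 9.002, 8.21 and 7.72 FPKM in mESC, 33.0, 40.8 and 34.5 for D5-LSKCD201-, 334, 344 and 336 for D5-LSKCD201+, 954, 969 and 963 in FL-LSKCD201+ and 1120.4, 1212 and 1265 in BM-LSKCD201+. Each group lay above the one before it without overlap. Cyth4, an exchange factor for Arf GTPases, was at 1.91 ± 0.110 FPKM in D5-LSKCD201-, 16.6 ± 1.39 in D5-LSKCD201+ and 53.9 ± 7.499 in FL-LSKCD201+.

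The GTPase that Arhgdib binds and the factors that load it did not share that day 5 pattern. Rac2 (ENSMUSG00000033220, chr15:78559167-78572783, minus strand), the Rac of blood cells, stood at 0.342, 0.458 and 0.419 FPKM in mESC, 2.65, 3.16 and 2.71 for D5-LSKCD201-, 1.72, 2.31 and 2.62 for D5-LSKCD201+, 199, 169 and 164 in FL-LSKCD201+ and 155, 175 and 181 in BM-LSKCD201+. D5-LSKCD201+ was at 1.25% of FL-LSKCD201+, and no library of D5-LSKCD201+ was above those of D5-LSKCD201-. Vav1, an exchange factor for Rac, was at 1.35 ± 0.0213 and 1.35 ± 0.194 FPKM in the day 5 groups and 51.0 ± 14.7 in FL-LSKCD201+. Dock2 (ENSMUSG00000020143, chr11:34226815-34783892, minus strand), the other main Rac exchange factor of leukocytes and the lowest of the role, was at 0.532, 0.382 and 0.640 FPKM in mESC, 0.185, 0.216 and 0.246 for D5-LSKCD201-, 0.129, 0.148 and 0.0555 for D5-LSKCD201+, 24.6, 19.0 and 19.2 in FL-LSKCD201+ and 40.8, 37.7 and 36.2 in BM-LSKCD201+. All day 5 libraries of Dock2 lay below all mESC libraries. Rhoh, a GTPase without hydrolytic activity that acts in lymphocytes, was at 0.891 ± 0.114 FPKM in D5-LSKCD201+ versus 15.2 ± 0.826 in FL-LSKCD201+. The GTPase-activating proteins Arhgap15 and Arhgap30 were at 0.175 ± 0.122 and 0.176 ± 0.0216 FPKM in D5-LSKCD201+ and at 39.5 ± 3.38 and 22.0 ± 2.95 in FL-LSKCD201+. Arhgap30 was at 1.39, 1.12 and 1.48 FPKM for D5-LSKCD201- versus 0.152, 0.189 and 0.189 for D5-LSKCD201+, with no overlap.

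The 7 actin and adhesion genes divided in the same way. Coro1a (ENSMUSG00000030707, chr7:126699773-126707787, minus strand), which encodes the actin-binding protein coronin 1A, stood at 8.63, 7.88 and 8.71 FPKM in mESC, 8.46, 9.17 and 7.60 for D5-LSKCD201-, 11.0, 13.1 and 12.4 for D5-LSKCD201+, 845, 727 and 742 in FL-LSKCD201+ and 561, 655 and 665 in BM-LSKCD201+. D5-LSKCD201- overlapped mESC and D5-LSKCD201+ lay above both, and its mean was 1.58% of that in FL-LSKCD201+. Lcp1, the actin-bundling L-plastin, was at 0.560 ± 0.105 FPKM in mESC, 10.1 ± 0.406 in D5-LSKCD201-, 92.2 ± 3.97 in D5-LSKCD201+ and 153 ± 9.96 in FL-LSKCD201+. Fermt3, which encodes kindlin-3, the activator of integrins in blood cells, was at 11.0 ± 1.75 FPKM in D5-LSKCD201-, 76.4 ± 2.65 in D5-LSKCD201+ and 244, 152 and 152 in the 3 libraries of FL-LSKCD201+. Replicate 1 of FL-LSKCD201+ was the high one. Was, which encodes the Wiskott-Aldrich syndrome protein, Nckap1l and the class I myosin Myo1g were at 0.824 ± 0.131, 0.732 ± 0.0707 and 0.219 ± 0.0541 FPKM in D5-LSKCD201+ and at 17.1 ± 2.17, 23.6 ± 2.67 and 29.9 ± 6.49 in FL-LSKCD201+. Apbb1ip (ENSMUSG00000026786, chr2:22774094-22875653, plus strand), which encodes the Rap1 effector RIAM, was the lowest of the role, at 0.0383, 0 and 0.0122 FPKM in mESC, 0.132, 0.142 and 0.0783 for D5-LSKCD201-, 0.647, 0.736 and 0.426 for D5-LSKCD201+, 12.3, 16.9 and 17.5 in FL-LSKCD201+ and 6.80, 8.53 and 9.46 in BM-LSKCD201+. Its day 5 groups did not overlap, although both were under 1 FPKM.

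In the remaining 5 genes, Gimap6 (ENSMUSG00000047867, chr6:48701582-48708225, minus strand) and Gimap1, GTPases of immunity-associated proteins from the same stretch of chromosome 6, were high in D5-LSKCD201+. Gimap6 stood at 0.678, 0.754 and 1.10 FPKM in mESC, 4.90, 5.56 and 5.84 for D5-LSKCD201-, 125, 133 and 128 for D5-LSKCD201+, 586, 433 and 431 in FL-LSKCD201+ and 495, 486 and 487 in BM-LSKCD201+. Gimap1 (ENSMUSG00000090019, chr6:48739054-48743795, plus strand) was at 3.36 ± 0.319 FPKM in D5-LSKCD201- versus 87.4 ± 0.822 in D5-LSKCD201+, 41.0% of its level in FL-LSKCD201+. It shares exonic bases with Gimap1os on the opposite strand and with Gm28053 on the same strand, which stood at 2.69 and 2.43 FPKM in D5-LSKCD201+. Laptm5 (ENSMUSG00000028581, chr4:130913125-130936141, plus strand), a lysosomal membrane protein of blood cells, was at 13.2, 13.4 and 14.6 FPKM in mESC, 10.1, 6.41 and 10.04 for D5-LSKCD201-, 17.9, 20.3 and 19.4 for D5-LSKCD201+ and 326, 259 and 254 in FL-LSKCD201+. The day 5 groups stood on either side of mESC. Evi2a, a membrane protein gene inside an intron of Nf1, was at 2.34 ± 0.347 FPKM in D5-LSKCD201- versus 1.92 ± 0.509 in D5-LSKCD201+. Cybb (ENSMUSG00000015340, chrX:9435252-9487771, minus strand), the catalytic subunit of the phagocyte NADPH oxidase and the lowest of these genes, was at 0.0196, 0.102 and 0.00973 FPKM in mESC, 0.0579, 0.00957 and 0.0874 for D5-LSKCD201-, 0.0645, 0.0109 and 0 for D5-LSKCD201+, 6.65, 6.17 and 5.75 in FL-LSKCD201+ and 0.712, 0.545 and 0.483 in BM-LSKCD201+. Only the fetal liver libraries were above 1 FPKM.

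Differences between groups were taken on log2(FPKM + 1), which understates the change of weakly expressed genes, and were fitted with limma over every gene whose mean in the libraries compared reached 0.5 FPKM. For a call, the adjusted p had to be below 0.05 and the change at least 1 on the log2 scale. In D5-LSKCD201+ against D5-LSKCD201-, 33 members passed the filter on low values and 15 were higher and 1 lower, where 10.8% of all 13691 genes tested were higher and 13.9% lower. Over all 43 members the median log2 difference was 0.30, and -0.12 over all genes tested. The largest differences were those of Il2rg (4.39, SE 0.09), Gimap1 (4.34, SE 0.07) and Gimap6 (4.33, SE 0.07). In the other direction Cd52 differed by -1.41 (SE 0.23), Arhgap30 by -0.98 (SE 0.09) and Plek by -0.85 (SE 0.14). By role, 3 of 5 adaptors and 3 of 8 kinases, phosphatases and lipid enzymes were higher, and 2 of 10 surface genes. The rule that chose the members used this contrast, so nothing is read from these counts.

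Both day 5 groups were also set against mESC, which they share as the control. In D5-LSKCD201+, 17 of 29 members tested were higher and 1 lower (19.5% and 18.1% of all genes tested), with a median of 0.61 over the 43. Gimap6, Lcp1 and Gimap1 led with differences of 6.14, 5.90 and 5.90, and Myo1g, Cd37 and Spn differed by -1.06, -0.89 and -0.77. In D5-LSKCD201-, 15 of 30 were higher and 1 lower (10.9% and 3.48% of all genes tested), with a median of 0.52. Lcp1, Fermt3 and Cd44 led there with 2.84, 2.69 and 2.12. Cd37, Laptm5 and Myo1g differed by -1.19, -0.61 and -0.60. Lcp1, for example, was thus above mESC in each day 5 group, and further above it in D5-LSKCD201+. From mESC to D5-LSKCD201- and D5-LSKCD201+, the endothelial markers went from 15.8-16.3 FPKM to 46.4-48.3 and 909-950. The stromal markers went from 5.79-6.44 to 20.8-39.2 and 47.6-50.8 in the same order. The megakaryocyte and platelet markers went from 0.931-1.15 to 5.74-6.83 and 50.4-52.7. Lower than in mESC were naive pluripotency markers in both, T lymphoid markers in D5-LSKCD201+ and B lymphoid markers in D5-LSKCD201-. Their part was not tested.

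In FL-LSKCD201+ nearly every member was higher than on day 5. Against D5-LSKCD201+, 38 of the 43 were higher and 0 lower, where 19.6% of all genes tested were higher and 15.1% lower, and the median log2 difference was 2.81. Without replicate 1 of FL-LSKCD201+ the count was 36, with Lcp2 and Fermt3 short of the thresholds. The 5 short of the thresholds were Il2rg, Lyn, Fgr, Inpp5d and Lcp1. Traf3ip3, Coro1a and Rac2 had the largest differences, 5.97 (SE 0.16), 5.87 (SE 0.10) and 5.80 (SE 0.13), and Lyn differed by -0.33 (SE 0.12). Against D5-LSKCD201-, 42 of 43 were higher and 0 lower (18.7% and 18.6% of all genes tested), with a median of 3.92. Coro1a, Gimap6 and Cd48 led with 6.36, 6.22 and 5.73, and Plek, at 0.78 (SE 0.17), was the member short of them. The 8 small GTPase genes were higher in all 8 cases in either comparison, with medians of 4.29 and 4.33. For the 5 adaptors the medians were 2.42 and 4.93, and for the 8 kinases, phosphatases and lipid enzymes 1.501 and 2.15.

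**Figure D2:**
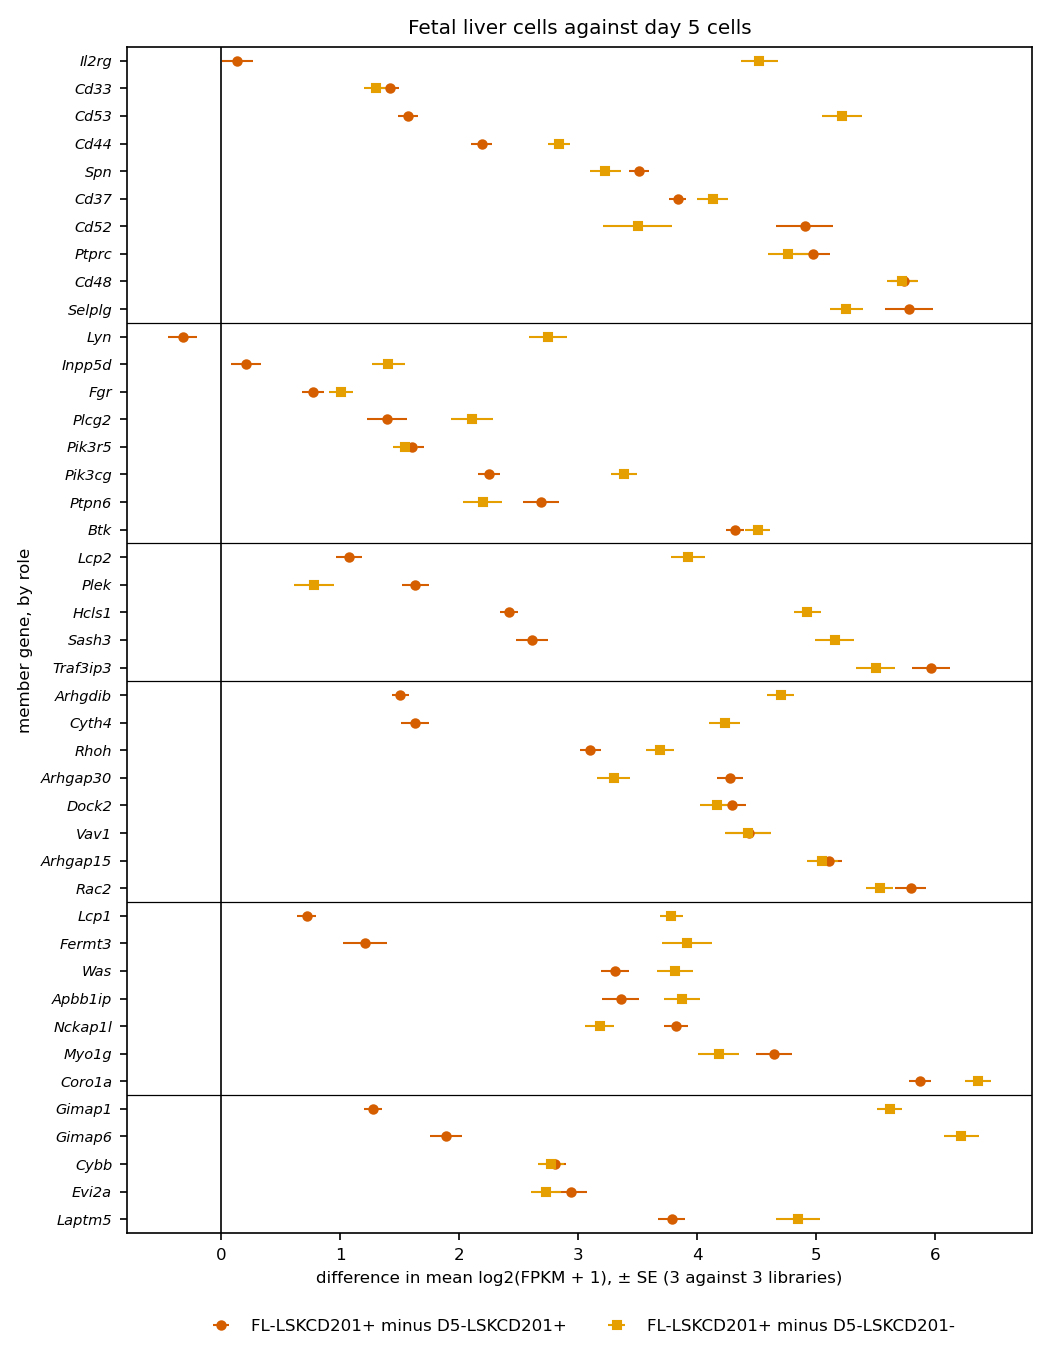
Difference in mean log2(FPKM + 1) between FL-LSKCD201+ and D5-LSKCD201+ (circles) or D5-LSKCD201- (squares) for each of the 43 members (rows, by role), with SE from 3 against 3 libraries. Circles lie far left of squares for Il2rg, Gimap1, Gimap6 and Lcp1, and both marks lie together above 4 for Rac2, Vav1, Dock2, Arhgap15, Cd48 and Ptprc.

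Between the tissues the members lay closer to no difference. In BM-LSKCD201+ against FL-LSKCD201+, 9 members were higher and 2 lower, where 11.3% and 7.78% of all 13503 genes tested were higher and lower, and 32 were short of the thresholds. The share of members higher, 9 of 43, is a description for the same reason as before. The median log2 difference was 0.58, and 0.13 over all genes tested. Plek stood at 6.9995, 6.11 and 5.20 FPKM in FL-LSKCD201+ and 39.6, 39.3 and 40.1 in BM-LSKCD201+, a difference of 2.52 (SE 0.11). Rhoh stood at 15.8, 15.6 and 14.3 FPKM in the fetal liver and 52.9, 53.1 and 52.3 in the bone marrow (1.73, SE 0.08). None of these libraries overlapped between the tissues. Cd37 was at 54.3, 51.8 and 49.2 FPKM in the fetal liver and 152, 164 and 163 in the bone marrow (1.61, SE 0.08), the third of the largest. The other members higher in BM-LSKCD201+ were Cd53, Selplg, Spn, Lcp2, Arhgap15 and Laptm5. Cybb was lower, with a difference of -2.19 (SE 0.12), as was Fgr, with -1.05 (SE 0.22). Fgr fell short of the fold threshold without replicate 2 (-0.89) or replicate 3 (-0.97) of BM-LSKCD201+. Apbb1ip differed by -0.83 (SE 0.17) without overlap and did not reach the fold threshold. Markers of several cell types differed between these groups too. From FL-LSKCD201+ to BM-LSKCD201+ the sum of the neutrophil markers went from 1525-1618 FPKM to 347-452, that of the erythroid markers from 352-422 to 4.99-13.1, and that of the monocyte and macrophage markers from 607-664 to 407-435. The mast cell markers went from 15.33-32.15 to 3.082-3.715. In the direction of most members, the 5 megakaryocyte and platelet markers went from 192-250 to 327-337 and the 6 stem cell markers from 252-316 to 504-524. The T lymphoid markers also went up, from 8.605-14.58 to 22.88-26.29. The part of all these markers' cell types in the difference was not tested.

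**Figure D3:**
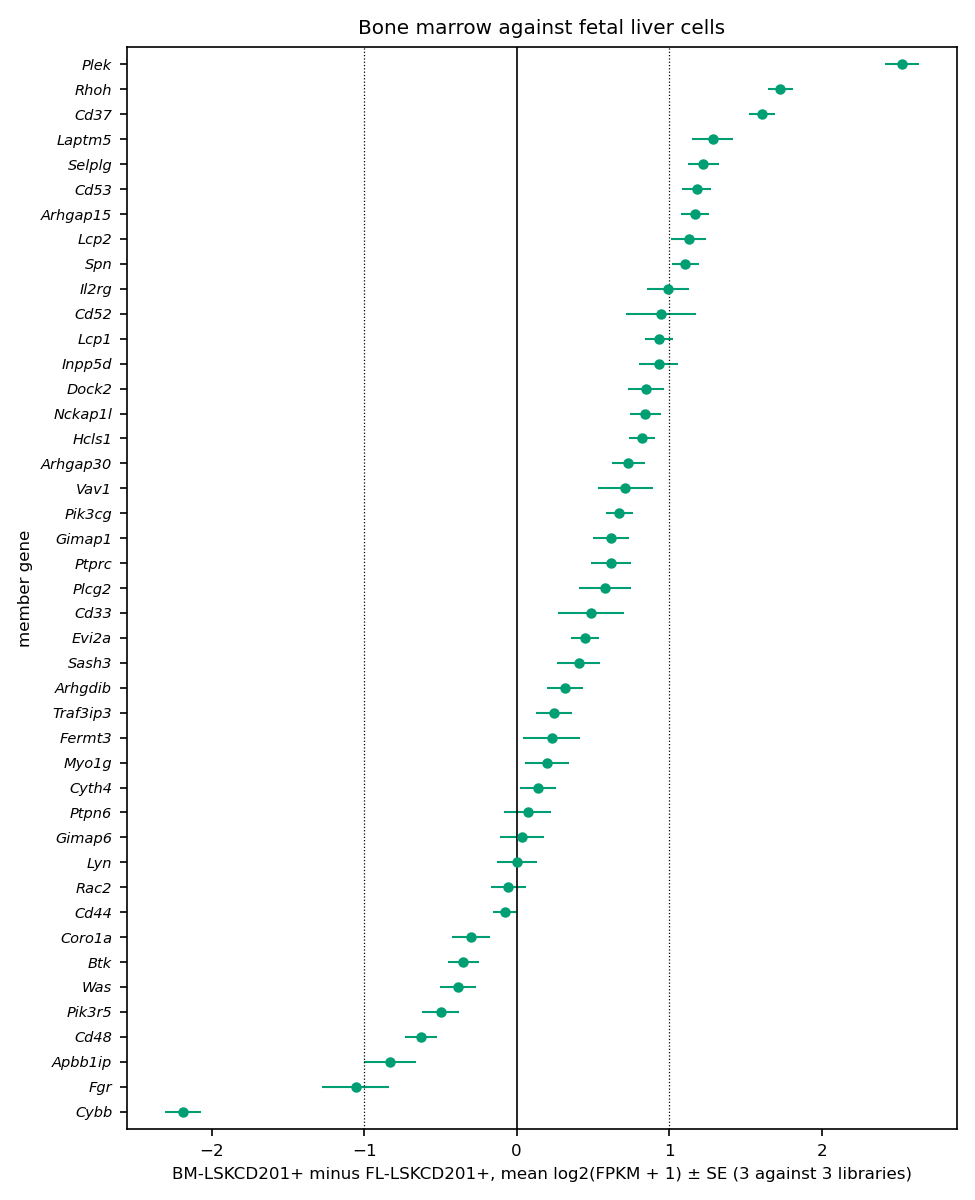
Difference in mean log2(FPKM + 1) between BM-LSKCD201+ and FL-LSKCD201+ for each of the 43 members, with SE from 3 against 3 libraries; dotted lines mark a log2 difference of 1 in either direction. Plek lies furthest right and Cybb furthest left, and most members lie between 0 and 1.

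The paralogs of the members were not used to choose them, and their differences were tested over all genes. Their list and that of the other pathway genes below were chosen with earlier results of these data known. Counts over these lists are thus not independent of these data. A gene under 0.5 FPKM in one of the groups compared passed the filter only with its level in the other, which favoured a difference in that direction. For 37 pairs of a member and a relative used by other cells, the share of the member in the summed FPKM of the pair was computed. Among pairs that summed to at least 1 FPKM, the member held over 50% in 5 of 33 in mESC, 4 of 35 in D5-LSKCD201-, 12 of 36 in D5-LSKCD201+, 32 of 37 in FL-LSKCD201+ and 35 of 37 in BM-LSKCD201+. The shares rest in part on the members, so those counts are a description. In FL-LSKCD201+ against D5-LSKCD201+, 16 of 36 paralogs tested fell and 5 rose, at a median log2 difference of -0.47, where 15.1% of all genes tested were lower and 19.6% higher. From D5-LSKCD201+ to FL-LSKCD201+ the endothelial markers went from 909-950 to 78.5-101 FPKM and the stromal markers from 47.6-50.8 to 11.9-12.8. The neutrophil, monocyte and macrophage, and erythroid markers went the other way. The part of these cell types in the paralogs' levels was not tested. Against D5-LSKCD201-, 13 of 37 fell and 6 rose (18.6% and 18.7% of all genes). In D5-LSKCD201+ against mESC, 16 of 36 rose and 1 fell (19.5% and 18.1%). In D5-LSKCD201+ against D5-LSKCD201-, 8 of 37 rose and 2 fell (10.8% and 13.9%). The counts were near or below those of all genes in the remaining comparisons, with 3 of 35 higher and 0 lower in D5-LSKCD201- against mESC (10.9% and 3.48%), and 1 of 35 higher and 4 lower in BM-LSKCD201+ against FL-LSKCD201+ (11.3% and 7.78%).

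Fermt2, Nckap1 and Pls3 had the largest falls of the paralogs in FL-LSKCD201+ against D5-LSKCD201+. Fermt2, which encodes kindlin-2, the integrin activator of adherent cells, was at 57.6 ± 0.362 FPKM in D5-LSKCD201+ versus 0.889 ± 0.163 in FL-LSKCD201+, a limma difference of -4.96 (SE 0.09, adjusted p 4.8e-08) on the log2 scale. Its relative among the members, Fermt3, held 57.0% ± 0.994 of the pair in D5-LSKCD201+ and 99.5% ± 0.199 in FL-LSKCD201+. Nckap1, the WAVE complex subunit of most cells, went from 15.7 ± 0.653 to 0.539 ± 0.160 FPKM (-3.44, SE 0.10, adjusted p 2.9e-07), and its blood-cell form Nckap1l held 4.47% ± 0.480 and 97.8% ± 0.379 of the pair. Pls3, the plastin of non-blood cells, went from 59.5 ± 1.67 to 5.93 ± 0.222 FPKM (-3.13, SE 0.07, adjusted p 9.1e-08). The proteins of Lcp1 and Pls3 are 79.7% identical in GENCODE M21, counted as identical aligned residues over the length of the shorter protein. Lcp1 held 8.33% ± 1.39 of the pair in D5-LSKCD201-, 60.8% ± 0.987 in D5-LSKCD201+ and 96.2% ± 0.333 in FL-LSKCD201+. Pls3 itself was already at 114 ± 19.5 FPKM in D5-LSKCD201-, above its 19.5 ± 0.594 in mESC (2.47, SE 0.11, adjusted p 3.7e-06). Against D5-LSKCD201-, the same genes led the falls, Fermt2 with -4.32 (SE 0.12, adjusted p 2.4e-07), Pls3 with -4.04 (SE 0.13, adjusted p 4.4e-07) and Nckap1 with -2.60 (SE 0.12, adjusted p 1.9e-06). Raph1 and Laptm4b also rose in D5-LSKCD201- against mESC, by 1.03 (SE 0.13, adjusted p 0.000515) and 1.01 (SE 0.07, adjusted p 2.1e-05), and each lost its call without replicate 2 of D5-LSKCD201- (0.92 and 0.94) and under quantile normalization (0.89 and 0.99). Raph1 also lost it without replicate 1 of mESC (0.95).

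Other paralogs behaved differently. Rac1, whose protein is 91.7% identical to that of Rac2, was at 117 ± 6.13 FPKM in D5-LSKCD201-, 205 ± 5.88 in D5-LSKCD201+, 178 ± 15.4 in FL-LSKCD201+ and 150.3 ± 1.06 in BM-LSKCD201+. It did not pass the test in FL-LSKCD201+ against D5-LSKCD201+ (-0.20, SE 0.08, adjusted p 0.0666). Rac2 held 1.07% ± 0.200 of that pair in D5-LSKCD201+ and 49.8% ± 0.505 in FL-LSKCD201+. Fyn, a Src family kinase 72.9% identical to Fgr, rose from 2.33 ± 0.324 FPKM in D5-LSKCD201- to 9.98 ± 0.487 in D5-LSKCD201+ (1.73, SE 0.11, adjusted p 7.8e-06) and to 30.3 ± 0.922 in FL-LSKCD201+ (1.51, SE 0.07, adjusted p 2.4e-06). Cyth3, 71.2% identical to Cyth4, did not pass in the same comparison of tissue and day 5 cells (0.04, SE 0.17, adjusted p 0.863). Cyth1, at 68.7%, rose in D5-LSKCD201+ against D5-LSKCD201- (2.08, SE 0.17, adjusted p 3.2e-05) and against mESC (2.60, SE 0.09, adjusted p 7.5e-09), fell in FL-LSKCD201+ (-1.14, SE 0.16, adjusted p 0.000633) and rose again in BM-LSKCD201+ (2.01, SE 0.17, adjusted p 7.6e-05). These identities are of proteins, and whether reads of one gene of a pair were assigned to the other was not examined.

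Vav3, a more widely expressed relative of Vav1, rose in D5-LSKCD201+ against D5-LSKCD201- (2.15, SE 0.11, adjusted p 2.7e-06), against mESC (3.10, SE 0.10, adjusted p 3.9e-09) and further in FL-LSKCD201+ (1.21, SE 0.11, adjusted p 6.2e-05). Pik3r6, a second regulatory subunit for the kinase of Pik3cg, was at 0.397 ± 0.0915 FPKM in D5-LSKCD201- versus 10.01 ± 0.735 in D5-LSKCD201+ (2.98, SE 0.10, adjusted p 5.1e-07), and at 0.0234 ± 0.0406 in mESC (3.43, SE 0.08, adjusted p 8.2e-10). In D5-LSKCD201+ it stood above the member Pik3r5, which held 0.713% ± 0.510 of the pair. Pik3r6 fell in BM-LSKCD201+ against FL-LSKCD201+ (-1.44, SE 0.22, adjusted p 0.00115), as did Bmx (-1.26, SE 0.18, adjusted p 0.000844) and Plek2, which was listed at 0 in all 3 BM-LSKCD201+ libraries and stood at 6.80 ± 0.446 FPKM in FL-LSKCD201+ (adjusted p 2.6e-06). In the day 5 cells Fermt1 and Cd9 fell in D5-LSKCD201+ against D5-LSKCD201-, by log2 fold changes of -1.12 (SE 0.10, adjusted p 4.2e-05) and -1.07 (SE 0.12, adjusted p 0.000208). Fermt1 lost its call under quantile normalization (-0.96) and Cd9 without replicate 2 of D5-LSKCD201- (-0.92). Arhgap32 fell in D5-LSKCD201+ against mESC (-1.56, SE 0.09, adjusted p 2.5e-07). Plek2 rose in FL-LSKCD201+ against D5-LSKCD201+ by 2.08 (SE 0.11, adjusted p 4.5e-06), and Fyn, Vav3 and Pik3r6 rose against D5-LSKCD201-, by 3.24 (SE 0.12, adjusted p 6.0e-07), 3.36 (SE 0.12, adjusted p 5.7e-07) and 1.36 (SE 0.21, adjusted p 0.000985).

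A further 54 genes of the same pathways that are not members were tested with them. All 54 passed the filter in FL-LSKCD201+ against either day 5 group. The 13 too low to be tested between the day 5 groups passed here only with their fetal liver level. For them the filter favoured a rise, so the counts beside those of all genes are a description. Against D5-LSKCD201+, 38 rose and 1 fell, where 19.6% of all genes tested were higher and 15.1% lower, and against D5-LSKCD201-, 44 rose and 1 fell (18.7% and 18.6%). Ptprcap, which encodes the protein that binds CD45 at the membrane, was at 1.06 ± 0.314 FPKM in D5-LSKCD201+ versus 459 ± 15.5 in FL-LSKCD201+ (7.81, SE 0.11, adjusted p 3.0e-08, limma). Bin2, a membrane-curving protein of leukocytes, and Lsp1, an F-actin binding protein, rose by 5.78 (SE 0.12, adjusted p 8.0e-08) and 5.42 (SE 0.06, adjusted p 2.7e-08). Cotl1, a coactosin-like actin binder, fell by 1.03 on the log2 scale (adjusted p 9.9e-06). Against D5-LSKCD201-, Ptprcap, Lsp1 and the parvin Parvg had the largest rises, 7.36 (SE 0.11, adjusted p 9.0e-08), 5.75 (SE 0.09, adjusted p 9.0e-08) and 5.38 (SE 0.20, adjusted p 6.6e-07), and Emb, a glycoprotein related to basigin, fell (-2.39, SE 0.11, adjusted p 1.9e-06).

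In D5-LSKCD201+ against D5-LSKCD201-, 14 of 41 pathway genes tested rose and 5 fell, and 13 were too low to be tested. Over all genes tested 10.8% were higher and 13.9% lower, so the share that fell was near that of all genes. Arhgap25, a Rac GTPase-activating protein, was at 1.42 ± 0.138 FPKM in D5-LSKCD201- versus 26.9 ± 1.06 in D5-LSKCD201+ (3.53, SE 0.09, adjusted p 1.4e-07). Csf2rb, the common beta chain of the receptors for GM-CSF, IL-3 and IL-5, rose by 3.33 (SE 0.09, adjusted p 1.7e-07) and Gmfg, an actin debranching factor, by 2.73 (SE 0.10, adjusted p 6.5e-07). Emb and Bin2 fell by -2.54 (SE 0.08, adjusted p 3.5e-07) and -1.50 (SE 0.08, adjusted p 5.1e-06). In D5-LSKCD201+ against mESC, 14 of 39 tested rose and 7 fell, where 19.5% of all genes were higher and 18.1% lower, and here too the share that fell was near that of all genes. Arhgap25, Csf2rb and the integrin-associated protein gene Cd47 rose by 4.59 (SE 0.07, adjusted p 7.0e-11), 4.17 (SE 0.07, adjusted p 1.0e-10) and 3.55 (SE 0.12, adjusted p 5.8e-09), and the long-tailed myosin gene Myo1f and Bin2 fell by -3.34 (SE 0.09, adjusted p 1.4e-09) and -2.23 (SE 0.07, adjusted p 5.3e-09). In D5-LSKCD201- against mESC, 9 of 35 tested rose and 5 fell (10.9% and 3.48% of all genes). Emb, Cd47 and Lsp1 rose by 2.08 (SE 0.08, adjusted p 1.6e-06), 2.08 (SE 0.16, adjusted p 4.6e-05) and 1.81 (SE 0.10, adjusted p 7.7e-06), and Myo1f and the adaptor gene Skap2 fell by -2.09 (SE 0.09, adjusted p 3.4e-06) and -1.30 (SE 0.12, adjusted p 8.5e-05).

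In BM-LSKCD201+ against FL-LSKCD201+, 11 of 53 tested rose and 2 fell, where 11.3% of all genes were higher and 7.78% lower. The transmembrane adaptor Lat2 was at 4.202 ± 0.620 FPKM in FL-LSKCD201+ and 61.2 ± 6.54 in BM-LSKCD201+ (3.58, SE 0.13, adjusted p 2.1e-06), the largest rise. Rasal3, a Ras GTPase-activating protein of blood cells, rose by 2.09 (SE 0.09, adjusted p 4.6e-06) and Evi2b, the neighbour of the member Evi2a, by 1.44 (SE 0.16, adjusted p 0.00026). Ly86, which encodes a partner of the Toll-like relative RP105, fell by 2.44 on the log2 scale (adjusted p 4.1e-05).

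In total cells on day 5, most members stood under 1 FPKM in 3D+0.1%gelatin. The 5 naive pluripotency markers summed to 502 to 764 FPKM in 3D+OP9 and 830 to 910 in 3D+0.1%gelatin, but they did not move together. Pou5f1 and Nanog were lower in 3D+OP9 without overlap, Sox2 overlapped, and Esrrb, at 33.1 ± 11.4 against 2.08 ± 0.0964 FPKM, and Zfp42, at 40.1 ± 11.7 against 5.50 ± 1.98, were higher without overlap. The endothelial markers summed to 78.2 to 94.6 FPKM in 3D+OP9 and 8.95 to 19.6 in 3D+0.1%gelatin, and the stromal markers to 51.7 to 68.9 and 38.3 to 47.6. Of the blood lineages, the megakaryocyte and platelet markers summed to 8.25 to 9.86 FPKM in 3D+OP9 and 0.410 to 0.700 in 3D+0.1%gelatin, and the erythroid markers to 14.4 to 25.3 and 4.04 to 4.75. The stem cell markers summed to 10.8 to 13.4 and 5.11 to 6.45. All these moved with the condition, and their part was not tested. The median of the 43 members was 0.527 FPKM in 3D+OP9 and 0.200 in 3D+0.1%gelatin. Of 20 members that passed the filter, 7 were higher and 0 lower in 3D+OP9, where 2.11% of all 12958 genes tested were higher and 0.509% lower. The count of 7 was 4 without replicate 2 of 3D+OP9 or without replicate 2 or 3 of 3D+0.1%gelatin, with Inpp5d, Was and Gimap6 short of the thresholds in each case. Over all 43 the median log2 difference was 0.24, and 35 were above 0. Without replicate 3 of 3D+OP9, which stood apart, the median was 0.13.

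Laptm5 stood at 5.01, 6.05 and 8.13 FPKM in 3D+OP9 and 0.5, 0.3 and 0.210 in 3D+0.1%gelatin, a difference of 2.45 (SE 0.18). Fermt3 stood at 6.95, 7.75 and 5.96 FPKM in 3D+OP9 and 0.370, 0.360 and 0.690 on gelatin (2.42, SE 0.15), and Arhgdib at 14.7, 16.2 and 12.3 on OP9 and 3.53, 2.94 and 4.18 on gelatin (1.76, SE 0.15). These 3 did not overlap between conditions. Plek, the fourth member higher, was at 2.42 ± 0.490 FPKM in 3D+OP9 and 0.0967 ± 0.0153 in 3D+0.1%gelatin. Coro1a, at 1.85, 1.54 and 3.38 FPKM in 3D+OP9 and 4.22, 4.09 and 4.61 in 3D+0.1%gelatin, and Nckap1l, at 0.210, 0.240 and 0.470 on OP9 and 0.710, 0.890 and 0.820 on gelatin, lay the other way without overlap and below the fold threshold. Ptprc was at 0, 0.110 and 0.0100 FPKM in 3D+OP9 and 0, 0 and 0.0100 in 3D+0.1%gelatin, at or near 0 in every library. Arhgap15 was at 6.33, 5.75 and 8.60 FPKM in 3D+OP9 and 16.3, 6.73 and 4.56 on gelatin, with the conditions overlapping. The tables were normalized separately, so these levels are not set against those of the sorted cells. Of the 54 other pathway genes 32 were tested, of which 3 rose and 1 fell. Of all genes tested, 2.11% were higher and 0.509% lower. Grap2 and Csf2rb stood at 1.44 and 1.15 FPKM in 3D+OP9 and at 0.137 and 0.0367 in 3D+0.1%gelatin. Both passed the filter only with their 3D+OP9 level. For them the filter favoured a rise, so the count beside that of all genes is a description. Grap2 rose by 1.10 (SE 0.12, adjusted p 0.00276), Arhgap45 by 1.08 (SE 0.17, adjusted p 0.0114) and Csf2rb by 1.04 (SE 0.13, adjusted p 0.00553), all adaptors, regulators or receptors of blood cells, and Cyfip2, a WAVE complex subunit, fell (-1.38, SE 0.18, adjusted p 0.00588). Of the 37 paralogs 35 were tested. Vav3 alone rose (1.17, SE 0.12, adjusted p 0.00276) and 0 fell, a share near that of all genes. In all, 22 pathway genes and 2 paralogs were too low to be tested. The limma calls of Csf2rb and Arhgap45 each sat near the fold threshold and were lost under 2 alternatives.

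**Figure D4:**
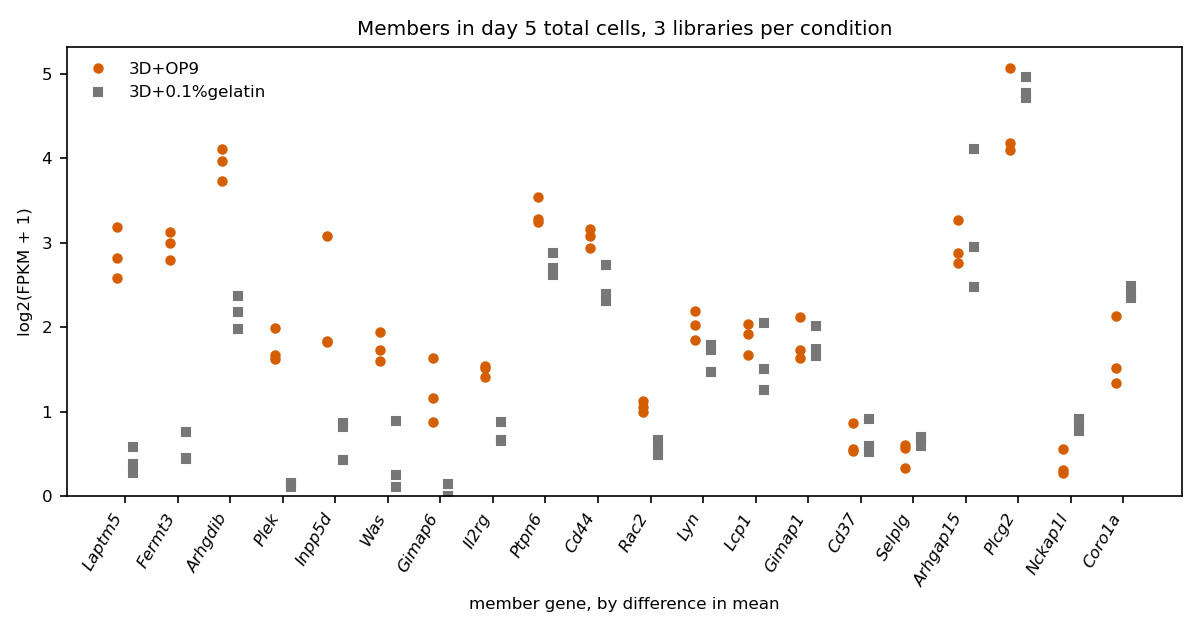
Level of the 20 members that passed the filter in total cells on day 5, as log2(FPKM + 1), in 3 libraries of 3D+OP9 (circles) and 3 of 3D+0.1%gelatin (squares), ordered by the difference in mean. Laptm5, Fermt3, Arhgdib and Plek separate at the left with circles above, and Nckap1l and Coro1a at the right with squares above.

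Across the 15 sorted-cell libraries the members did not follow the mean profile of the set alike. Pearson's r of each member with the mean of the members' standardized log2 values, which includes the member itself, was highest for Pik3cg (0.994), followed by Btk (0.985) and Rac2 (0.984), and lowest for Fgr (0.245), Cybb (0.715) and Lyn (0.758). Outside the set, among genes whose mean reached 0.5 FPKM, those with the most similar profiles included N4bp2l1, Unc13d, Ssbp2, Selenbp1, Neurl3, Rilpl2, Smpdl3a, Hacd4 and Jak2, with r from 0.995 to 0.999. Jak2, a tyrosine kinase of cytokine receptors, was at 0.447 FPKM in mESC, 0.736 for D5-LSKCD201-, 1.31 for D5-LSKCD201+, 7.33 in FL-LSKCD201+ and 10.5 in BM-LSKCD201+. Unc13d, a gene of granule release, stood at 2.53, 3.44, 6.09, 42.6 and 54.3 FPKM in the same order. The libraries of a group share their source, so these r describe the likeness of profiles over 5 groups.

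The subset of 19 members at 10% or more of the fetal liver level in D5-LSKCD201+ was set beside the 24 below it. It was defined by measured values, so the figures are descriptions. GGAAGT was in the windows of 10 of 18 and 10 of 19 members with a RefSeq window, and TGTGGT in those of 4 and 6. Just inside the line stood Pik3cg, at 14.5%, and just outside it Evi2a, at 9.06%. In all, 16 of the 43 members share exonic bases with another annotated gene, among them Coro1a with Bola2, Fermt3 with Trpt1 and Evi2a with Evi2, and their values are uncertain to the extent that reads were split.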

How the data were processed

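Total RNA was extracted with TRIzol from sorted cells, and the VAHTS mRNA-seq v2 kit was used for the libraries, whose handling of strand is not given in the sources used here. The authors deposited FPKM values per gene and library in one table for the 6 coculture libraries and one for the 15 sorted-cell libraries. The submitters' processing notes name HISAT2 2.0.5, StringTie 1.3.3 and Cuffdiff 1.3.0 and list GRCm38 beside an older build whose role is not given. No counts were used here, so depth per library is unknown. Gene bounds in the deposited table were wider than the annotation by over 1 kb for 11 members, and positions are those of GENCODE on GRCm38.

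Members were matched by symbol. They, the lists of 54 other pathway genes and 37 paralogs, and all rules were chosen with earlier results of these data known. Log2(FPKM + 1) was fitted per comparison with limma 3.58.1 in R 4.3.3 for genes with a mean of 0.5 FPKM or more, with Benjamini-Hochberg adjustment over every gene tested. In data simulated for 3D+OP9 against 3D+0.1%gelatin, 95.5% of 200 genes changed by 2 on the log2 scale were recovered. For D5-LSKCD201+ against D5-LSKCD201- the rate was 96.5%. These rates were not worked out for the members or by level of expression. They therefore do not show how often a change in a weakly expressed member, as most were in these groups, would be recovered. An exact permutation test of 3 against 3 libraries cannot go below 0.1 and was not used.

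Replicate values are given for Ptprc, for the highest and lowest member of each role and for most of the members with the 3 largest non-overlapping differences in each direction. Others of these, such as Lcp1, Gimap1, Cd44, Spn and Myo1g, are given as means ± SD or as differences only. Among the other lists, the 3 largest calls in each direction were named, with the paralogs of the 5 most identical pairs and the 10 genes most like the mean profile. A few genes that this rule named are not reported here. Deviations from the group means of same-numbered libraries correlated at 0.242, 0.202 and 0.159 between BM-LSKCD201+ and FL-LSKCD201+. Only 3 of these libraries correlated best with the library of their own number, and the labels give no pairing. Whether the libraries pair by number is thus not known, and each comparison was also fitted with the replicate number of the labels as a block. The remaining alternatives used a pseudocount of 0.1 FPKM, dropped the filter or set it at 1 FPKM, or used quantile normalization, a single fit over the 5 sorted groups or all but 1 library. A replicate far closer to one than to the other of its group was averaged with it in an alternative chosen after seeing the data.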

Additional observations from a re-analysis of the deposited data

How the results depend on the processing

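The direction of the median difference of the members was kept under every alternative run. A pseudocount of 0.1 FPKM, which widens the differences of weakly expressed genes, gave medians of 0.6452 for 3D+OP9 against 3D+0.1%gelatin, 0.5285 for D5-LSKCD201+ against D5-LSKCD201-, 1.5878 and 1.0834 for D5-LSKCD201+ and D5-LSKCD201- against mESC, and 3.8181 and 4.9887 for FL-LSKCD201+ against D5-LSKCD201+ and D5-LSKCD201-. It gave 4 members lower in D5-LSKCD201+ against D5-LSKCD201-, 2 in D5-LSKCD201+ against mESC and 4 in D5-LSKCD201- against mESC, where 1 was lower each time. Of the other pathway genes and paralogs it gave 13 lower in D5-LSKCD201+ against D5-LSKCD201- (7 as reported) and 2 in 3D+OP9 (1 as reported). Quantile normalization gave medians of 0.4747 for D5-LSKCD201+ against D5-LSKCD201- and 0.2862 for D5-LSKCD201- against mESC, and 2 members lower in D5-LSKCD201+ against mESC. A filter of 1 FPKM, which tests fewer genes, left 0 members lower there, 1 lower in BM-LSKCD201+ and 2 other genes higher in 3D+OP9. Averaging the closest pairs left 1 member lower in BM-LSKCD201+.

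Leaving out 1 library at a time gave 4 to 7 members higher in 3D+OP9 and a median of 0.1318 (without its replicate 3) to 0.2789. In the other genes 1 to 2 were lower there. Members lower numbered 1 to 2 in D5-LSKCD201+ against D5-LSKCD201- and 1 to 2 in BM-LSKCD201+. The medians ran from 0.4419 to 0.5561 for D5-LSKCD201- against mESC, 3.8980 to 4.0285 for FL-LSKCD201+ against D5-LSKCD201- and 0.4803 to 0.5677 for BM-LSKCD201+ against FL-LSKCD201+. The causes were not tested. With the replicate number as a block, 9 members were higher and 2 lower in BM-LSKCD201+, as without it, and no call of a member changed in any comparison. Of 1261 alternative values of the named genes, 1241 kept direction and call, 14 lost a call, 6 gained one and 0 reversed. Since only FPKM was used, the precision that depth gives low values such as those of Ptprc on day 5 is unknown.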
